A study of Mus musculus with 1152 samples.

Results

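Galectins are small proteins that bind beta-galactoside sugars, and Lgals3bp encodes a secreted glycoprotein that galectins bind. The genes described here are Lgals1, Lgals3, Lgals3bp, Lgals8 and Lgals9, chosen by name, which are 5 of the 48587 genes counted in single microglia from mouse brain. Cells came from wild-type (WT) mice and from 5xFAD mice, both labelled C57BL/6J, and from cortex, hippocampus and cerebellum of the same animals. The WT groups held 4 mice in each region, with 167 kept cells in cortex, 182 in hippocampus and 162 in cerebellum. The 5xFAD groups held 4 mice in cortex with 183 cells, 3 mice in hippocampus with 154 cells and 3 mice in cerebellum with 193 cells. The 5xFAD line carries transgenes that lead to amyloid deposits, driven by the neuronal Thy1 promoter, so the transgenes act in neurons and not in the cells measured here. The labels state no age and no treatment for any group.

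Galectins have carbohydrate recognition domains that hold galactose-ending sugar chains on surface proteins, and they act outside the cell after non-classical secretion and inside it on damaged membranes. Lgals1 encodes a dimeric galectin common in stromal and immune cells, Lgals3 a chimeric galectin that joins 1 recognition domain to a flexible tail, and Lgals8 and Lgals9 tandem-repeat galectins that join a pair of domains. Galectin-3 is a well-known product of microglia near amyloid plaques, galectin-8 marks ruptured vesicles for autophagy, and galectin-9 binds the inhibitory receptor encoded by Havcr2. Lgals3bp, also called 90K or Mac-2 binding protein, carries a scavenger receptor cysteine-rich domain and is known as an interferon-inducible gene.

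Lgals3bp was higher in cells with interferon-response transcripts, and Lgals9 was higher there in most libraries without passing the test described below. The letters at the start of these genes are therefore shown first. RefSeq promoter windows of 300 bases on GRCm38.p6, from 250 bases before to 50 after the annotated start, were matched for 4 of the 5 genes, all but Lgals1. Each window was searched on both strands for the interferon-stimulated response element (GAAA, any 2 bases, GAAA), which 3.44% of 32851 promoter windows hold, and for the gamma-activated site TTCNNNGAA, held by 8.30%. A shorter interferon regulatory factor core, AANNGAAA, was added after the Lgals3bp letters had been seen, overlaps the response element and is held by 23.9% of the windows. Of 12 interferon panel genes with a window, 7 hold the response element, 3 the gamma-activated site and 8 the core.
The Lgals9 window holds 2 matches to the response element, both on the opposite strand, so that the capitals below are its reverse complement. The Lgals9 window also holds 3 matches to the core, of which 1, at positions -151 to -144, lies apart from its response elements. The Lgals3bp window holds no response element, but holds 1 match to the core, in capitals.
Lgals9, chr11:78984960-78984989, minus strand: tgacatcagcTTTCTTTTTCtctagacact
Lgals9, chr11:78984890-78984919, minus strand: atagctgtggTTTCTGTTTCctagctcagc
Lgals3bp, chr11:118401955-118401984, minus strand: tgttttctgaaAATCGAAActaggtgaggt
The first Lgals9 match to the response element lies at positions -55 to -46 from the RefSeq start, outside every annotated exon of the gene. The second lies at positions 16 to 25, in the first exon and its untranslated part. The Lgals3bp match lies at positions -14 to -7 from the RefSeq start, within an untranslated exon of a longer annotated transcript. The Lgals3 and Lgals8 windows hold 0 matches to any of the 3 motifs, and no window of the 4 genes holds the gamma-activated site. A match describes the letters and does not show that a factor binds there.

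Wells on 3 plates were filled by sorting with antibodies to CD11b, CD45, Ly6C, Ly6G and CD206, and were read by Smart-seq2, a full-length method without molecular identifiers. Of 1140 wells labelled as cells, 1041 were kept, and the group medians ranged from 198492 to 343580 gene reads per cell. All 10 microglia markers were detected in every group, at a summed 48589 to 73392 CPM per mouse (CPM, reads of a gene scaled to a common library size). At least 3 markers of border macrophages were present in 10 WT and 9 5xFAD cerebellar wells, against 0 or 1 well in each other group, and 5 wells of the 5xFAD cerebellum carried at least 3 neutrophil markers and 6 at least 3 monocyte markers, against 0 in each other group for both types. The first plate held the cortex and hippocampus of WT mice, the second the WT cerebellum with the 5xFAD cortex, and the third the remaining 5xFAD regions, so plate and group cannot be told apart. The replicate throughout is the sum of reads over the kept cells of 1 mouse in 1 region, of which there were 22.

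Per kilobase of exon, Lgals3bp and Lgals9 were the abundant genes of the group and Lgals1 and Lgals3 the scarce ones. Over the 22 mouse sums, the mean level per length was 318.8 ± 216 CPM per kb for Lgals3bp and 297 ± 52.9 for Lgals9 (SD, n = 22), and each was the higher of the pair in 11 sums. Lgals8 averaged 33.6 ± 9.90 CPM per kb, and Lgals1 and Lgals3 averaged 10.4 ± 11.8 and 8.16 ± 14.2. Lgals3bp and Lgals9 were each above the other 3 genes in all 22 sums. At least 1 read of Lgals9 was found in 772 of the 1041 cells, of Lgals3bp in 746, of Lgals8 in 333, of Lgals1 in 91 and of Lgals3 in 50. Of 12 blank wells, 3 held 1 read of Lgals3bp each, and the other 4 genes had 0 reads in them.

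**Figure D1:**
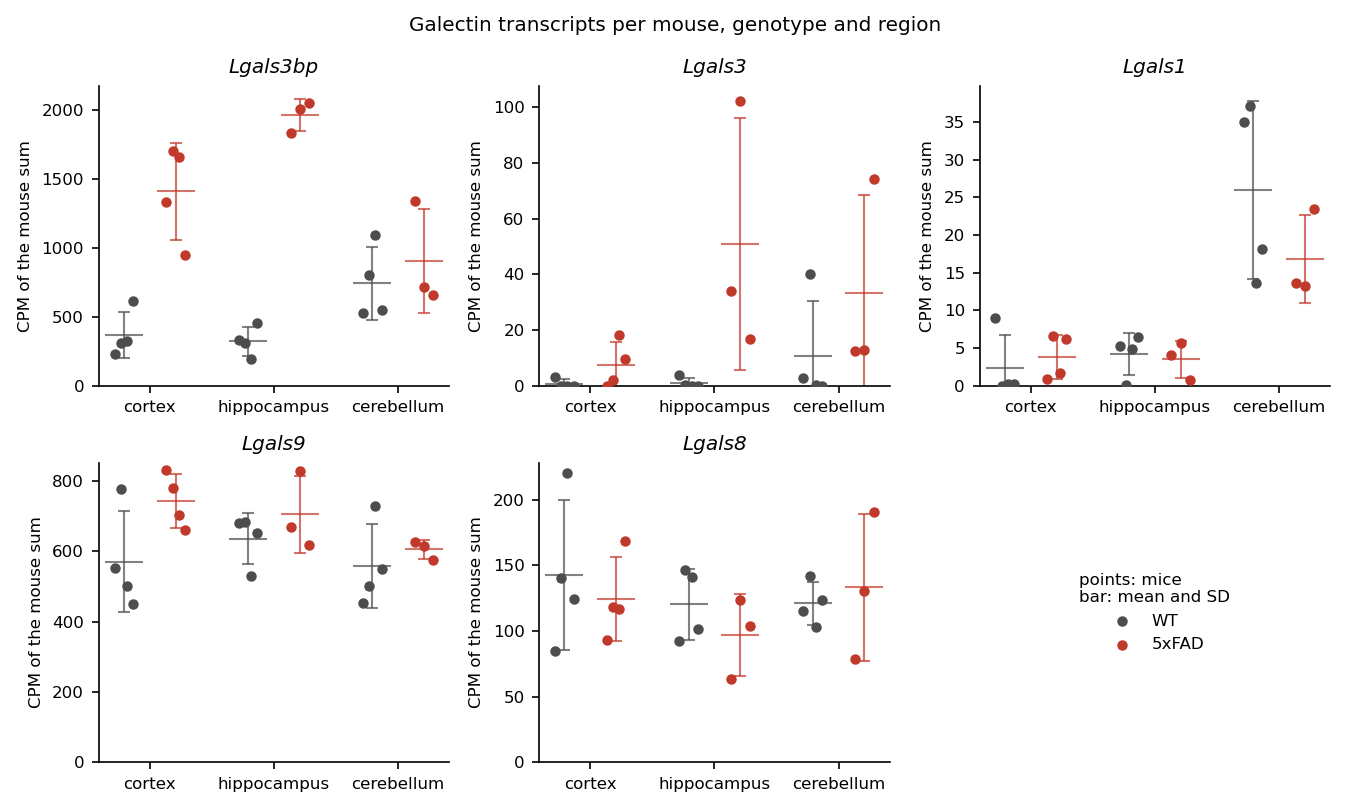
Level of each gene in CPM (y axis) by region and genotype (x axis), where points are mice and bars the mean and SD. Lgals3bp separated the genotypes in cortex and hippocampus, Lgals1 was highest in the cerebellum, and Lgals8 and Lgals9 overlapped between genotypes in all 3 regions.

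Lgals3bp (ENSMUSG00000033880, GRCm38 chr11:118392751-118402092, minus strand) was the gene of the 5 that rose in 5xFAD microglia. It rose 3.79-fold in cortex and 6.08-fold in hippocampus, and in cerebellum the 2 genotypes were not separated. The level in WT cortex was 234.3, 310.8, 327.7 and 611.7 CPM in mice 1 to 4. In 5xFAD cortex it was 1332, 1704, 1654 and 944.3 CPM in mice 1 to 4. Every 5xFAD cortex stood above every WT cortex, with the nearest pair being 5xFAD mouse 4 and WT mouse 4. The log2 fold change was 1.92 ± 0.31 (SE), with a 95% interval of 1.28 to 2.57 and an adjusted p of 0.00346 by edgeR's quasi-likelihood test with Benjamini-Hochberg adjustment. Lgals3bp was 1 of 5 genes called in cortex, where 0.294% of all 17358 genes tested were called and 3.06% had every 5xFAD sum above every WT sum. In the fit with the mouse as a block, which uses limma in place of edgeR, the cortex estimate was 1.86 with an adjusted p of 0.138. Limma without the block, a comparison added after seeing the data, gave 1.86 with an adjusted p of 0.137, so the call was lost with the other test and the block moved it little. Over all 22 alternatives the adjusted p ran from 1.09e-28 to 0.607.

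In the hippocampus, Lgals3bp stood at 329.9, 309.0, 196.2 and 454.6 CPM in WT mice 1 to 4. The 5xFAD hippocampus held 1831, 2004 and 2050 CPM in mice 1 to 3. The 3 values of 5xFAD hippocampus were the highest of all 22 sums and lay close together, far from the WT range. The log2 fold change was 2.60 ± 0.33 (95% interval 1.92 to 3.29, edgeR adjusted p = 7.61e-05), and Lgals3bp was the only one of the 5 called, against 1.01% of all genes called and 7.21% with every 5xFAD sum above every WT sum. Leaving out any 1 of the 7 hippocampal sums gave log2 fold changes from 2.43 to 2.83, each called.

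The WT cerebellum held 527.3, 800.5, 1092 and 548.7 CPM of Lgals3bp in mice 1 to 4. In the 5xFAD cerebellum mice 1 to 3 held 1335, 714.1 and 658.3 CPM. The genotypes overlapped there, with mouse 1 above and mice 2 and 3 within the WT range. The log2 fold change of 0.28 ± 0.32 had a 95% interval of -0.39 to 0.95 (edgeR adjusted p = 0.913). None of the 5 genes was called in cerebellum by edgeR, DESeq2 or limma, 0 had an unadjusted p under 0.05, and 0.0461% of all genes were called.

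The genotype difference of Lgals3bp was larger in hippocampus than in cerebellum, by 2.32 ± 0.47 on the log2 scale (95% interval 1.36 to 3.29, edgeR adjusted p = 0.0290). This contrast called 0.300% of all genes. Its call was lost when single mice of every group compared were left out. These were WT hippocampus mouse 1, 2 or 3, WT cerebellum mouse 2, any 5xFAD hippocampus mouse and 5xFAD cerebellum mouse 2 or 3. Without 1 of these the edgeR adjusted p ran from 0.0509 to 0.151. The log2 differences were 2.08 to 2.71 over all 14 sums left out in turn. Between hippocampus and cortex the genotype difference of Lgals3bp differed by 0.68 ± 0.44 (adjusted p = 0.630), and between cortex and cerebellum by 1.64 ± 0.45 (adjusted p = 0.308), where 0.0461% and 0.0807% of genes were called. Neither of these 2 differences passed the edgeR test.

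**Figure D2:**
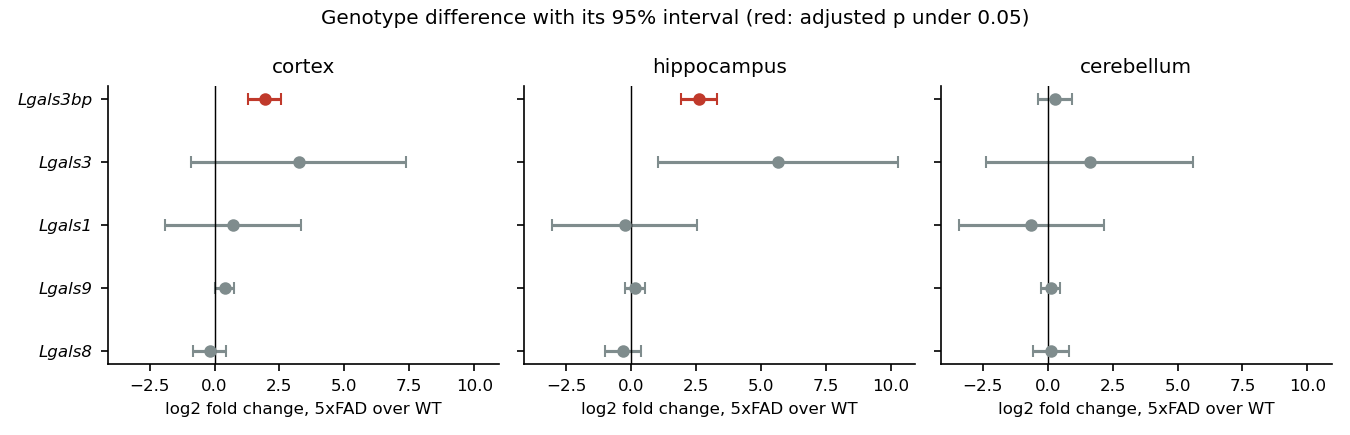
Log2 fold change of 5xFAD over WT (x axis) for each gene (y axis) in the 3 regions, with 95% intervals from edgeR, in red where the adjusted p was under 0.05. Only Lgals3bp in cortex (1.92) and hippocampus (2.60) is red, and the Lgals3 interval in hippocampus (1.02 to 10.26) is wide.

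Ordered by mean, Lgals3bp was highest in 5xFAD hippocampus at 1961 ± 115 CPM (SD, n = 3), then 5xFAD cortex at 1409 ± 351 (n = 4), 5xFAD cerebellum at 902 ± 376 (n = 3), WT cerebellum at 742 ± 264 (n = 4), WT cortex at 371 ± 165 (n = 4) and WT hippocampus at 322 ± 106 (n = 4). The neighbours 5xFAD and WT cerebellum, and WT cortex and WT hippocampus, differed by less than their pooled SD. Within WT, cerebellum exceeded cortex by 1.00 ± 0.30 on the log2 scale (adjusted p = 0.243), and hippocampus minus cerebellum was -1.20 ± 0.31 (adjusted p = 0.105). Within 5xFAD, hippocampus minus cerebellum was 1.12 ± 0.35 (adjusted p = 0.483). None of the 5 genes passed the edgeR test in any of the 6 comparisons between regions, whose percentages of all genes called were, for WT, 0 between hippocampus and cortex, 0.277 between cerebellum and cortex and 0.374 between hippocampus and cerebellum, and for 5xFAD, 0.0346, 0.0576 and 0.219 in the same order. At an unadjusted p under 0.05, Lgals3bp and Lgals1 would pass between WT cerebellum and cortex, and Lgals3bp between hippocampus and cerebellum in each genotype. DESeq2 called 1 gene in each of these 3 comparisons, and limma on cell means called 0. Between genotypes DESeq2 called more of all genes than edgeR, and its shares for these comparisons are not given here.

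The share of cells with a Lgals3bp read was 52.3 ± 11.1% in WT cortex and 89.1 ± 7.62% in 5xFAD cortex (SD, n = 4 mice each), with ranges that did not overlap. In hippocampus the shares were 54.7 ± 15.5% (n = 4) and 84.9 ± 3.95% (n = 3), and in cerebellum 64.9 ± 10.4% (n = 4) and 82.5 ± 2.64% (n = 3). The ranges did not overlap in these regions either, and how many of all genes separate in share was not counted. Two-sided exact permutation tests over mice gave p = 0.0286 in cortex, the smallest p that the design allows, and 0.0571 in each other region, and adjusted over the 15 tests of 5 genes in 3 regions these were 0.107 and 0.143. After thinning each cell to 50000 reads, which left 941 cells, the shares were 57.5% and 88.9% in cortex, 51.5% and 91.0% in hippocampus and 64.3% and 77.3% in cerebellum. The thinned ranges overlapped in cerebellum only. Among cells with a read, the mean of the mouse medians of Lgals3bp went from 513 CPM in WT to 1046 CPM in 5xFAD cortex, from 462 to 1769 CPM in hippocampus and from 689 to 814 CPM in cerebellum. So the mean share of cells was higher in 5xFAD in all 3 regions. That difference did not pass the adjusted test, which could not decide the question. Even complete separation gives at best an exact permutation p of 0.0286, which cannot pass over 15 tests unless most of them reach it. The mean level in cells with a read was also higher, by the least in cerebellum, without a test.

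Cells with interferon-response transcripts were unevenly spread over the groups. A cell was classed interferon-high when at least 4 of 16 interferon panel genes, such as Ifit3 and Isg15, had at least 10 reads, and interferon-low with 0 or 1. Interferon-high cells made up 4.19% of WT cortex, 5.49% of WT hippocampus and 22.2% of WT cerebellum, and 28.4%, 29.2% and 29.5% of the same regions of 5xFAD. Both low groups were on the first plate and the other 4 groups on the other plates. The class rests on read counts, and median gene reads per cell rose in the same order as these shares. The medians were 198492, 235875 and 250051.5 in WT cortex, hippocampus and cerebellum, and 256681, 328896 and 343580 in 5xFAD. The parts of plate and depth in these differences were not tested. Of the 16 panel genes, 0 were called between genotypes in cortex, 2 in hippocampus (Ifi27l2a and Slfn5, both higher in 5xFAD) and 0 in cerebellum by edgeR. At an unadjusted p under 0.05 there were 4, 9 and 0, without a share of all genes at that cutoff. The median log2 fold changes of the panel were 1.47, 2.23 and -0.62. WT mouse 4 had the highest Lgals3bp and the highest interferon-high share of its group in both cortex, at 9.52%, and hippocampus, at 18.2%, and so did WT mouse 3 and 5xFAD mouse 1 in cerebellum, at 33.3% and 37.1%. In 5xFAD cortex the highest Lgals3bp was in mouse 2, at 37.8%, and the highest share in mouse 3, at 39.1%. In 5xFAD hippocampus mouse 3 had the highest Lgals3bp and the lowest share, at 21.7%, and mouse 2 the highest share, at 41.4%.

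Within the same mouse and region, Lgals3bp was higher in interferon-high than in interferon-low cells in 15 of 15 libraries that held at least 5 cells of each class. These libraries gave 198 interferon-high and 333 interferon-low cells. How many of all genes were higher in all or most of the libraries is not given here. The level in interferon-high sums ran from 1018 to 3414 CPM with a median of 2024, and in interferon-low sums from 263 to 1427 CPM with a median of 505. The ranges of the 2 classes overlapped across libraries, while the ratio within a library ran from 1.62 to 7.53. The log2 fold change with the library as a block was 1.72 ± 0.16 (edgeR adjusted p = 2.83e-06), and leaving out any library gave 1.64 to 1.79, each called. Lgals3bp was the only one of the 5 genes called by edgeR, which called 0.537% of the 9133 genes tested. DESeq2, which called more of all genes than edgeR between genotypes, called 4 of the 5. Its share of all genes in this contrast is not given here.
The same contrast gave Lgals9 a log2 fold change of 0.63 ± 0.18 (unadjusted p = 0.00184, adjusted p = 0.169), with a higher value in 14 of 15 libraries. Lgals8 gave -0.53 ± 0.30, Lgals1 2.24 ± 1.17 and Lgals3 6.64 ± 2.17, whose adjusted p values were 0.870, 0.818 and 0.347. Lgals3 was higher in interferon-high cells in 9 libraries, lower in 3 and at 0 in both classes in 3. Its highest sum, 361.8 CPM, was interferon-low, against at most 115.5 CPM in interferon-high sums. Lgals1 was higher in 10 and lower in 5, and Lgals8 higher in 5 and lower in 10.

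Disease-associated cells were taken as those with at least 10 reads of at least 4 of Cst7, Lpl, Itgax, Clec7a, Spp1, Axl, Ch25h and Gpnmb, and panel-negative cells as those with 0 or 1. They made up 17.5% of 5xFAD cortex, 39.0% of hippocampus and 10.9% of cerebellum, and 0 to 1.23% of the WT groups. Lgals3bp was higher in disease-associated than in panel-negative cells in 9 of 9 libraries, with ratios from 1.13 to 7.04. The share of all genes that were higher in every library is not given here. In 5xFAD cortex the difference was 1.73 ± 0.33 on the log2 scale over 4 libraries (edgeR adjusted p = 0.0138), with 0.545% of all genes called. That call was lost without mouse 1 (1.60, adjusted p = 0.130), without mouse 4 (1.37, adjusted p = 0.121) and with a panel read minimum of 1 (1.70, adjusted p = 0.0852), and over all 9 alternatives the adjusted p ran from 0.00166 to 0.130. In hippocampus it was 1.38 ± 0.38 over 3 libraries (adjusted p = 0.297) and in cerebellum 1.08 ± 0.45 over 2 libraries (adjusted p = 0.833), where 0.332% and 0.153% of genes were called.

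**Figure D3:**
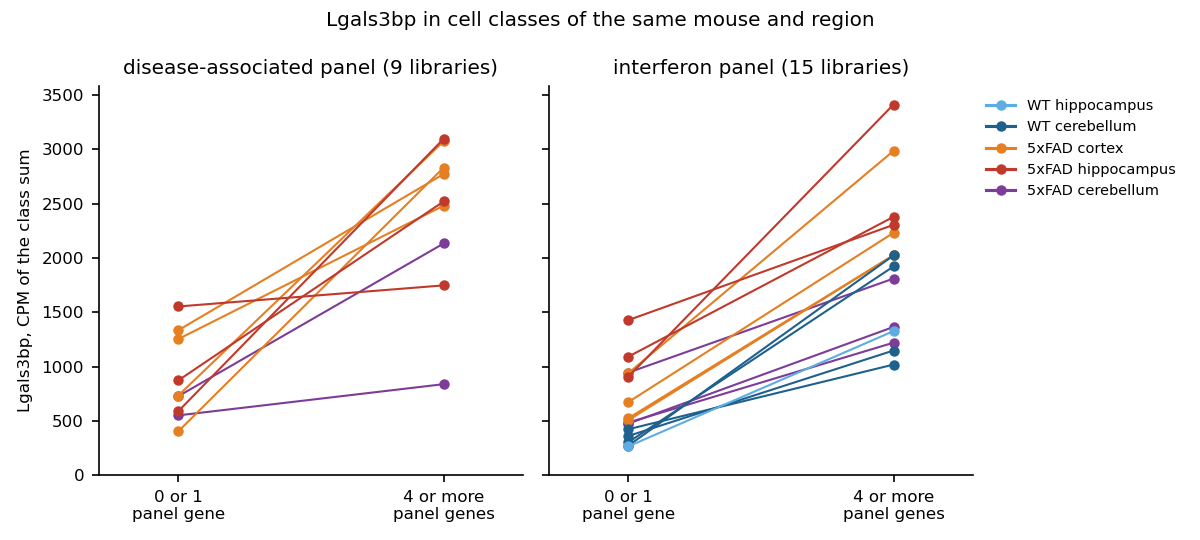
Lgals3bp in CPM (y axis) in cells with 0 or 1 and with 4 or more panel genes (x axis), where each line joins the 2 classes of 1 mouse and region. Every line rises, in 9 libraries for the disease-associated panel and in 15 for the interferon panel.

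The 2 panels overlapped in the same cells. In 5xFAD cells pooled over mice, Lgals3bp stood at 528.7 CPM in 166 cells low in both panels, at 1444 CPM in 66 cells high for interferon alone, at 1483 CPM in 13 cells high for the disease-associated panel alone and at 2485 CPM in 51 cells high in both. All 51 of the last had a Lgals3bp read, against 71.7% of the cells low in both. WT cells gave 287.6 CPM in 357 cells low in both and 1588 CPM in 40 cells high for interferon alone. These pooled values have no test over mice.

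Restricting the sums to the low classes, a choice made after seeing the data, gave smaller Lgals3bp differences between genotypes in cortex and hippocampus and a larger one in cerebellum. In interferon-low cells the WT means were 325 ± 88.5, 237 ± 90.8 and 327 ± 61.3 CPM in cortex, hippocampus and cerebellum (SD, n = 4 each). The 5xFAD means were 640.0 ± 187 (n = 4), 1110.5 ± 248 (n = 3) and 631 ± 273 (n = 3), so the WT cerebellum stood level with WT cortex and the 5xFAD hippocampus stayed the highest. The hippocampal difference was 2.23 ± 0.34 (edgeR adjusted p = 0.00313), against 0.98 ± 0.31 in cortex (adjusted p = 0.597) and 0.95 ± 0.33 in cerebellum (adjusted p = 0.521). In these sums 0.162%, 0.0195% and 0.0260% of all 15385 genes tested were called in hippocampus, cortex and cerebellum. In cells low in both panels the WT means were 329.7, 245 and 321 CPM and the 5xFAD means 544, 574 and 536 CPM. There the log2 differences were 0.72 ± 0.36, 1.23 ± 0.38 and 0.74 ± 0.38, with adjusted p values of 0.607, 0.208 and 0.560, and none was called, against 0.0137%, 0.322% and 0.0411% of all 14611 genes tested. The excess of the hippocampal over the cerebellar genotype difference in Lgals3bp was 1.28 ± 0.48 in interferon-low cells (adjusted p = 0.246) and 0.49 ± 0.55 in cells low in both panels (adjusted p = 0.817), where 0.0910% and 0.151% of all genes were called. In panel-negative cells, which may be interferon-high, Lgals3bp differed by 1.45 ± 0.39 in cortex (adjusted p = 0.539), 1.69 ± 0.41 in hippocampus (adjusted p = 0.113) and -0.06 ± 0.41 in cerebellum, where 0.0308%, 0.203% and 0.0308% of genes were called.

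**Figure D4:**
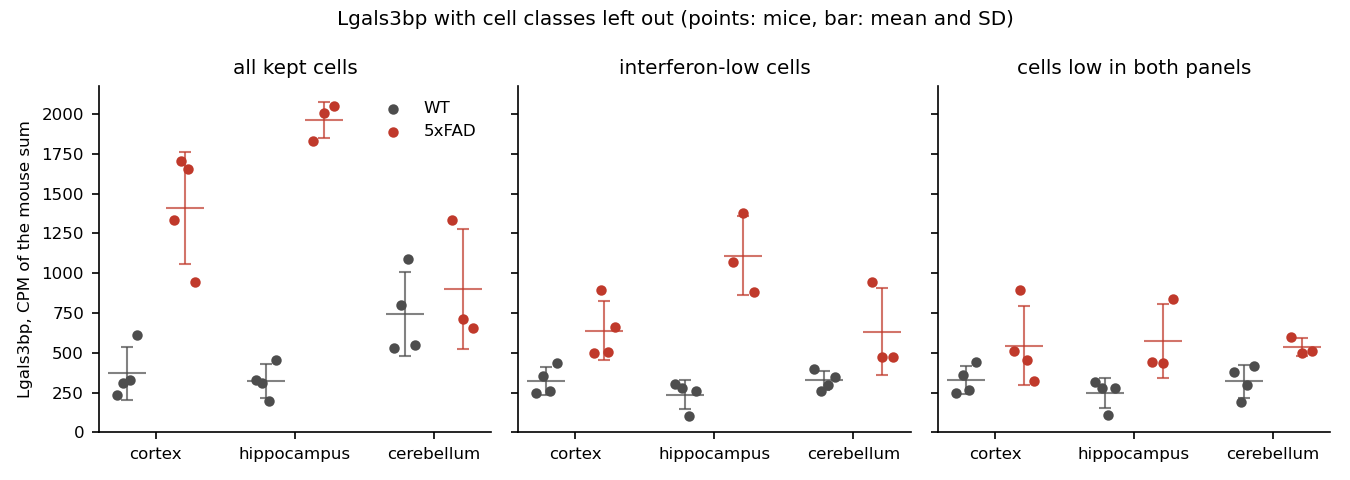
Lgals3bp in CPM (y axis) by region and genotype (x axis) in all kept cells, in interferon-low cells and in cells low in both panels, with points for mice and bars for mean and SD. The 5xFAD hippocampus mean goes from 1961 to 1110.5 and 574 CPM across the 3 plots, and the WT cerebellum mean from 742 to 327 and 321 CPM.

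Lgals3 (ENSMUSG00000050335, chr14:47367751-47386160, plus strand) was read in few cells, 39 of them 5xFAD and 11 WT, and did not pass the test in any region. WT hippocampus held 3.78, 0.327, 0 and 0 CPM in mice 1 to 4. The 5xFAD hippocampus held 34.1, 102.1 and 16.8 CPM in mice 1 to 3. The groups did not overlap, with mouse 2 of 5xFAD the highest and a pair of WT mice at 0, and 7.21% of all genes were separated in that direction. The log2 fold change was 5.64 ± 2.23, with a 95% interval of 1.02 to 10.26, an unadjusted p of 0.0191 and an adjusted p of 0.329 by edgeR. By limma it was 7.49 with an adjusted p of 0.0348 with the mouse as a block and 7.50 with an adjusted p of 0.0342 without it, so limma made a call that edgeR did not, with or without the block. Over all alternatives of this difference the adjusted p ran from 0.000401 to 0.814.

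The share of hippocampal cells with a Lgals3 read was 1.10 ± 1.27% in WT (n = 4) and 10.7 ± 4.15% in 5xFAD (n = 3), without overlap (exact permutation p = 0.0286, adjusted p = 0.107). After thinning it was 0.57% and 10.7%, again without overlap. How many of all genes separate in share this way was not counted. Of the 2428 Lgals3 reads of the 5xFAD hippocampus, 1026 came from 1 cell of mouse 2, and without it that library went from 91.8 to 37.6 CPM, here without TMM scaling. WT hippocampus had 37 reads in 2 cells. So the separation of the groups remained without the top cell, while the size of the mean did not.

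In cortex, Lgals3 was 3.27, 0, 0 and 0 CPM in WT mice and 0, 2.09, 18.4 and 9.64 CPM in 5xFAD mice 1 to 4. In cerebellum it was 2.94, 40.0, 0.420 and 0 CPM in WT mice and 12.7, 12.8 and 74.2 CPM in 5xFAD mice. The genotypes overlapped in both regions, and the log2 fold changes of 3.25 ± 2.00 and 1.61 ± 1.92 had adjusted p values of 0.561 and 0.918. In the WT cerebellum 3 of the 10 wells with border macrophage markers held Lgals3, and 55.6% of the group's 423 Lgals3 reads came from them. In the 5xFAD cerebellum 7 of the 15 wells with markers of another cell type held Lgals3, and 25.7% of the group's 2458 reads came from those.
Across 5xFAD cells, Lgals3 was read in 7 of 309 cells with 0 or 1 gene of the disease-associated panel, in 11 of 108 with 2 or 3 and in 21 of 113 with 4 or more. Within libraries it was higher in disease-associated cells in 7 of 9, lower in 1 and at 0 in both classes in 1. The hippocampal difference was 7.85 ± 2.48 (unadjusted p = 0.00555, edgeR adjusted p = 0.566).

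**Figure D5:**
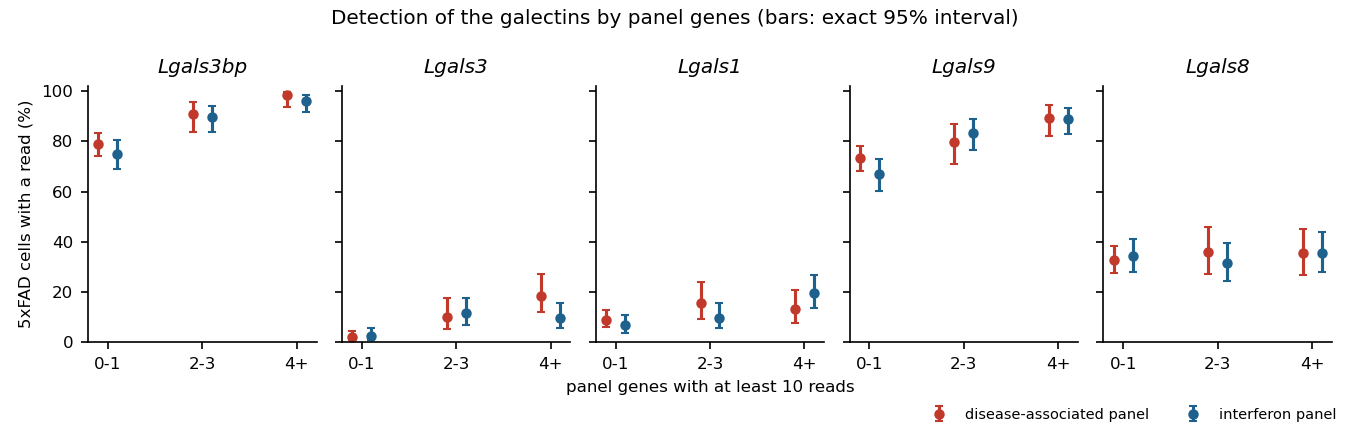
Percentage of 5xFAD cells with a read (y axis) by number of panel genes with at least 10 reads (x axis), for both panels, with exact 95% intervals that cover counting error over cells only. Along the disease-associated panel Lgals3bp goes from 79.0% to 98.2% and Lgals9 from 73.5% to 89.4%, while Lgals8 stays between 32.7% and 36.1%.

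Lgals1 (ENSMUSG00000068220, chr15:78926725-78930465, plus strand) was highest in the cerebellum of both genotypes in the sums of all kept cells. The WT cerebellum held 34.9, 37.1, 13.7 and 18.2 CPM in mice 1 to 4, and the WT cortex 8.95, 0, 0.271 and 0.224 CPM. In 5xFAD the cerebellum held 13.6, 13.2 and 23.5 CPM and the cortex 0.926, 6.56, 1.65 and 6.17 CPM. Cerebellum stood above cortex in every mouse of both genotypes, without overlap, as did 2.19% of all genes in WT and 4.31% in 5xFAD. The WT log2 difference was 3.47 ± 1.37 (unadjusted p = 0.0190, edgeR adjusted p = 0.371), and 7.20 with an adjusted p of 0.0396 without WT cortex mouse 1, which held most of the 56 Lgals1 reads of its group. The 5xFAD difference was 2.13 ± 1.35 (adjusted p = 0.713). In interferon-low cells, a choice made after seeing the data, WT cerebellum held 2.94 ± 1.62 CPM of Lgals1 (SD, n = 4). There WT hippocampus held 4.20 ± 4.78 and WT cortex 1.02 ± 1.58 CPM. The 5xFAD cerebellum stayed the highest of its genotype in those cells, at 10.8 ± 8.41 CPM (n = 3).

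Cerebellar wells with border macrophage markers carried much of the Lgals1. A Lgals1 read was found in 15 of 19 such wells, at a pooled 129.9 CPM, and in 36 of the 330 other cerebellar cells, at 14.3 CPM. In the WT cerebellum 50.6% of 947 Lgals1 reads came from the 10 wells with markers of another cell type, and in the 5xFAD cerebellum 24.9% of 1124 reads came from 15. Such wells also carried Lgals1 where it was scarce, with 37 of the 56 reads of WT cortex (66.1%) in 1 well and 27.4% of the 190 reads of WT hippocampus. Leaving them out of every group thus lowers both sides of the WT cerebellum minus cortex difference, which was then 4.09 (adjusted p = 0.361).

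Between genotypes, Lgals1 differed by 0.71 ± 1.26 in cortex, -0.24 ± 1.34 in hippocampus and -0.63 ± 1.35 in cerebellum on the log2 scale, with adjusted p values of 0.943, 0.993 and 0.985. In hippocampus the values were 5.33, 0.109, 4.88 and 6.48 CPM in WT and 4.10, 5.70 and 0.850 CPM in 5xFAD, which overlapped. The share of cortical cells with a read was 2.5 ± 2.22% in WT and 8.21 ± 2.19% in 5xFAD (n = 4 each, exact permutation p = 0.0286, adjusted p = 0.107), and after thinning it was 1.92% and 4.65% (exact permutation p = 0.314). Lgals1 was found in 17 of the 50 cells with Lgals3 and in 74 of the 991 without, cells of similar median depth (287703 and 251978 reads). These counts include wells with markers of other cell types. Of the 19 cerebellar wells with border macrophage markers, 15 held Lgals1 and 6 held Lgals3, against 36 and 14 of the 330 other cerebellar cells. How many of the 17 were such wells is not given here.

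Lgals9 (ENSMUSG00000001123, chr11:78962974-78984946, minus strand) varied little between groups, with means from 558 ± 120 CPM in WT cerebellum (n = 4) to 744 ± 76.5 CPM in 5xFAD cortex (n = 4). In cortex the level was 553.9, 775.6, 502.0 and 450.8 CPM in WT mice 1 to 4. In 5xFAD cortex it was 832.0, 779.2, 703.5 and 660.8 CPM. WT mouse 2 lay within the 5xFAD range and the other 3 WT mice below it. The log2 difference was 0.38 ± 0.17 (unadjusted p = 0.0327, edgeR adjusted p = 0.397), and in interferon-low cells it was -0.04. In hippocampus and cerebellum the differences were 0.15 ± 0.18 and 0.12 ± 0.18, with 95% intervals of -0.22 to 0.52 and -0.26 to 0.49. The share of cortical cells with a Lgals9 read was 71.0 ± 12% in WT and 85.8 ± 2.07% in 5xFAD (exact permutation p = 0.0286, adjusted p = 0.107), and 77.8% and 84.9% after thinning.

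Lgals8 (ENSMUSG00000057554, chr13:12439415-12464944, minus strand) did not pass the test in any comparison of genotypes or regions. Its group means ran from 97.0 ± 31.0 CPM in 5xFAD hippocampus (n = 3) to 142 ± 57.1 CPM in WT cortex (n = 4), and no neighbours in that order differed beyond their pooled SD. WT cortex held 84.5, 140.3, 220.6 and 124.5 CPM, and 5xFAD cortex 93.1, 118.8, 117.1 and 168.9 CPM in mice 1 to 4. The log2 differences between genotypes were -0.19 ± 0.31 in cortex, -0.31 ± 0.33 in hippocampus and 0.14 ± 0.33 in cerebellum, with 95% intervals of -0.83 to 0.44, -1.01 to 0.38 and -0.55 to 0.83. These intervals leave room for changes of a size that the replicates could not resolve. In no region was the share of cells with a Lgals8 read separated between genotypes, with exact permutation p from 0.257 to 1 (n = 3 or 4).

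Of the other galectin genes with a row, Lgals4 was the most often read, with 2408 reads in 54 cells, followed by Lgalsl with 1328 reads in 27 cells. Lgals12, Lgals2, Lgals7 and Grifin each had reads in 7 cells or fewer. Of these, 3 were tested and 0 were called by edgeR between genotypes in any region, with 1 at an unadjusted p under 0.05, in cerebellum.

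Among 20 proteins that galectins are known to bind, 19 were tested. Of these, 2 rose in 5xFAD cortex, Trem2, the lipid-sensing receptor of microglia, by 0.61 ± 0.10 on the log2 scale, and Lrp1, an endocytic receptor, by 0.83 ± 0.15. In hippocampus 4 rose, namely Trem2 by 0.82 ± 0.11, the lysosomal membrane proteins Lamp1 by 0.70 ± 0.10 and Lamp2 by 0.76 ± 0.15, and the integrin chain Itgb2 by 0.68 ± 0.15, and in cerebellum 0 passed, with 3 at an unadjusted p under 0.05. At an adjusted p under 0.05, 0.294%, 1.01% and 0.0461% of all genes were called in cortex, hippocampus and cerebellum. The median log2 fold change of the list was 0.36, 0.44 and 0.18 in the 3 regions, against -0.09, 0.10 and -0.01 over all genes. Trem2 was, like Lgals3bp, higher in disease-associated cells of 5xFAD cortex, by 0.91 ± 0.14 (edgeR adjusted p = 0.00248), and so was Lamp1, by 0.83 ± 0.16 (adjusted p = 0.0184). Trem2 was also higher in disease-associated cells of 5xFAD hippocampus, by 0.88 ± 0.17 (adjusted p = 0.0200), and in hippocampus over cerebellum of 5xFAD, by 0.73 ± 0.12 (adjusted p = 0.00446). In that order, these contrasts, starting with disease-associated cortex, called 0.545%, 0.332% and 0.219% of all genes. Vsir, an inhibitory receptor to which galectin-9 binds, was lower in disease-associated cells of 5xFAD cortex, by -0.90 ± 0.19 (adjusted p = 0.0325), and in interferon-high cells, by -0.49 ± 0.08 (adjusted p = 0.00389). The interferon-high contrast called 0.537% of all genes tested.
Of 30 enzymes that build, branch or cap the sugars galectins bind, 28 were tested and 0 were called by edgeR between genotypes. At an unadjusted p under 0.05 there were 4 in cortex, 4 in hippocampus and 5 in cerebellum. The share of all genes at that unadjusted cutoff is not given here, so these counts cannot be read as an excess. The sialyltransferase St3gal6 was lower in WT cerebellum than in WT cortex, by -0.98 ± 0.17, where 0.277% of all genes were called. Of the 38 genes of the damaged lysosome response, in which galectin-3 and galectin-8 take part, 36 were tested and 0 called by edgeR between genotypes, with 1 at an unadjusted p under 0.05 in each region. The same counts, 0 called and 1 in each region before adjustment, held for the 5 tested of 10 genes that share domains with Lgals3bp.

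Over the 22 sums, the genes most like Lgals3bp in log2 CPM, among 4966 compared, were Gusb (Pearson r = 0.93), B2m (0.91), Ctsb (0.90) and Ctsz (0.89). With the group means removed, these r were 0.56, 0.62, 0.48 and 0.30. The nearest to Lgals3 were Psap (0.84), Itgb2 (0.78), Cxcl16 (0.76) and Atf3 (0.76), and the nearest to Lgals1 were Cd74 (0.81), H2-Aa (0.81), Tet3 (0.77) and H2-Ab1 (0.76). For Lgals9 they were Nagpa (0.71), Tspan4 (0.71), Txlna (0.70) and Dlgap4 (0.69), and for Lgals8 Gtpbp2 (0.69), Cd2ap (0.68), Usp39 (0.63) and Gmeb1 (0.63). These r describe sums that share libraries, plates and depth, and carry no test.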

How the data were processed

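Raw read counts per gene and well, deposited as 1 table, were made with STAR 2.5.2b and featureCounts 1.5.1 on GRCm38, per the submitters' processing notes. In 96 wells of plate columns 1 and 2 the deposited counts held the sum of later wells of the same plate row. Those were subtracted, which left 0 negative values, against 506416 of 4673184 when the next row was subtracted. Cells with at least 500 genes, at least 10000 gene reads and at most 20% mitochondrial reads were kept. ERCC spike-in rows (92) were left out.

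Counts were summed per mouse and region, and 17358 genes passed filterByExpr. edgeR 4.0.16 in R 4.3.3 (TMM, quasi-likelihood test) gave CPM and log2 fold changes, with Benjamini-Hochberg adjustment over all genes and a threshold of 0.05. DESeq2 1.42.0 and limma 3.58.1 were alternatives. Percentages of all genes called refer to adjusted p, and shares of all genes at an unadjusted p under 0.05 are not given. The script was tested on simulated data. Shares of cells were compared by two-sided exact permutation tests over mice, whose smallest p is 0.0286 in each region. CPM per kb used the exon length of GENCODE vM21. Exact intervals of shares of cells cover counting error over cells only, and reads were not collapsed by molecule.

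The labels number the mice of a genotype, and the regions came from the same mice, so a number was taken to mark 1 mouse. Deviations from the group means over 4668 genes correlated between -0.0405 and 0.0495 in 21 same-numbered pairs (median 0.00159), and 0 pairs exceeded 0.1. Besides the 5 genes, the text names the members of each list past the threshold, at most 4 per direction by smallest p, and for each gene the 4 with the highest Pearson r among genes averaging a log2 CPM of 4 or more and detected by 20% or more of some group's cells. Genes and lists were chosen with earlier results of these data known.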

Additional observations from a re-analysis of the deposited data

Results flagged for a closer look

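In 4 of the 20 sets of 4 mice, 1 mouse lay far from the other 3, where chance gives about 1 in 20 for values with a roughly normal spread. All 4 were WT groups of Lgals1 or Lgals3, genes with few reads, in which a mouse at or near 0 is common. Lgals1 in WT cortex was 8.95 CPM in mouse 1. Lgals3 was 3.27 CPM in mouse 1 of WT cortex, 3.78 CPM in mouse 1 of WT hippocampus and 40.0 CPM in mouse 2 of WT cerebellum. Each of these 4 values was the highest of its group. The genotype difference of Lgals3bp was larger in hippocampus than in cerebellum by 2.32 on the log2 scale, in a test of that difference by edgeR.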

How the results depend on the processing

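Of 376 recomputed counts of genes called among the 5, 336 stayed within 1.5 times the reported count and 40 did not. Of 1907 recomputed single values, 1860 kept their direction and side of the threshold, 21 lost and 21 gained a call, and 5 reversed. Of the folds whose interval includes 0, 148 of 1383 changed sign.
With the replicate block (mouse), 0 genes were called in cortex and 2 in hippocampus (the second was Lgals3), against 1 each by edgeR, and this block changed no other count. The blocked fits between genotypes use limma, and limma without the block, added after seeing the data, also called 0 in cortex and 2 in hippocampus. Genes called in all numbered 37, 362 and 66 in cortex, hippocampus and cerebellum by limma with the block, 37, 370 and 66 without it, and 51, 176 and 8 by edgeR.
With interferon-low cells only, a choice made after seeing the data, 0 were called in cortex and 0 for the hippocampus minus cerebellum difference. With cells low in both panels only, also chosen after seeing the data, 0 were called in cortex, 0 in hippocampus and 0 for that difference. Reversed values were Lgals9 in cortex at -0.0397 (interferon-low) and -0.0451 (low in both), and, low in both, Lgals3 in hippocampus at -2.41, Lgals3bp in WT cerebellum minus cortex at -0.0375 and Lgals3bp in the cortex minus cerebellum genotype difference at -0.0162. The cause was not tested.
Without a filter on low counts, 2 were called in hippocampus and 1 in WT cerebellum against cortex, WT hippocampus against cerebellum, 5xFAD hippocampus against cerebellum and the cortex minus cerebellum difference. DESeq2 called 1 in each of the last 4, in disease-associated hippocampus and in panel-negative cortex and hippocampus, 2 in disease-associated cortex and 4 in interferon-high cells. Limma on cell means called 2 in hippocampus and 0 for the hippocampus minus cerebellum difference, which only the groups compared also left at 0. With the columns as deposited, 1 was called in WT hippocampus against cerebellum, and with panel genes of at least 1 read 0 in disease-associated cortex.
Leaving out 1 sum in turn gave 0 to 1 calls for WT cerebellum against cortex, for the hippocampus minus cerebellum difference and for disease-associated cortex.
DESeq2 called 473, 748 and 324 genes in all between genotypes in cortex, hippocampus and cerebellum, no filter 190, 327 and 98, and limma on cell means 476 and 499 in the first 2.
Limits: 3 or 4 mice a group, few reads of Lgals1 and Lgals3, class sums of few cells, groups confounded with plate, and cell classes that depend on depth. WT cortex and WT hippocampus each had Lgals3 reads in 2 cells, so a WT level there is not measured beyond those cells.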

Other observations

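Lgals3bp and Lgals9 were read together in 601 cells. A Lgals9 read was found in 80.6% of the 746 cells with Lgals3bp and in 58.0% of the 295 without, whose median depths were 267568 and 219420 reads.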
